A study of Rattus norvegicus with 6 samples.

Results

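The genes described here are the subunits of the transcription factor NF-kB and a set of its feedback inhibitors and signalling partners, in rat liver sinusoidal endothelial cells held at a low or a high hydrodynamic pressure. The members were a fixed set of 10 symbols, Nfkb1, Nfkb2, Rela, Relb, Nfkbia, Nfkbiz, Tnfaip2, Tnfaip3, Birc3 and Traf1. All 10 were found under 1 identifier each among the 32623 genes of the files, and all 10 passed the filter on low counts that left 12742 genes for testing. The cells came from Han Wistar rats and were cultured for 48 h in a perfused device together with hepatocytes, stellate cells and hepatic macrophages, under a shear stress of 1.15 dyn/cm2. The physiological group was held at 1 mmHg and the pathological group at 12 mmHg, with 3 libraries each, and the labels name no other agent or genotype for either group. Neither the age of the animals nor the number of animals behind a library is stated in the sources used here, so the p-values reflect the spread among these 6 libraries alone, and that spread may be technical.

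NF-kB is a family of dimeric transcription factors that wait in the cytoplasm bound to inhibitors of the IkB family. In the canonical pathway, signals from tumour necrosis factor, interleukin-1 or Toll-like receptors lead to phosphorylation and destruction of IkB alpha, the product of Nfkbia, and the freed dimers of RelA and the Nfkb1 product enter the nucleus. In the non-canonical pathway, the Nfkb2 precursor is processed to a subunit that pairs with RelB. Among the genes that NF-kB switches on are its own inhibitors, so the response limits itself, and in liver endothelium its other targets include leukocyte adhesion molecules and chemokines.

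Promoter sequences show which members carry an NF-kB site close to their start, and are printed for that reason. A promoter was in the RefSeq table (build GRCr8) for 8 of the 10 members, as the 250 bases before and the 50 bases after the gene start. Relb and Birc3 had no entry. The kappaB consensus decamer, searched on both strands with overlaps counted, was present in 5 of these 8 promoters, Nfkb1, Nfkb2, Nfkbia, Nfkbiz and Tnfaip3, and in 2515 of all 33469 promoters of 300 bases (7.51%). The promoters of Rela, Tnfaip2 and Traf1 held no match in this window. Stretches around the matches are given 5′ to 3′ on the strand of the gene, with the matches in capitals.
Nfkbia (chr6:78597073-78597133, minus strand): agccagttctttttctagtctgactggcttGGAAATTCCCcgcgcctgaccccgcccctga
Nfkb1 (chr2:226805440-226805489, minus strand): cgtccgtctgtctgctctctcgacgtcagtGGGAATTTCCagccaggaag
Nfkbiz (chr11:58251678-58251727, plus strand): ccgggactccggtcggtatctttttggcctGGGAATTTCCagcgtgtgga
Nfkb2 (chr1:255108324-255108373, plus strand): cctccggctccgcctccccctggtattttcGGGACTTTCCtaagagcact
Tnfaip3 (chr1:15543995-15544179, minus strand): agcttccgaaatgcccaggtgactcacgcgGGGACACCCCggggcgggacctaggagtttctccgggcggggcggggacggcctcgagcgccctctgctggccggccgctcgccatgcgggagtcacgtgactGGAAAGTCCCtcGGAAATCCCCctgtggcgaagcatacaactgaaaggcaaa
The decamer GGGAATTTCC, on either strand, was shared by Nfkb1, Nfkbiz and Nfkbia and was found in 25 of all promoters (0.0747%). The decamer GGGACTTTCC, on either strand, was shared by Nfkb2 and Tnfaip3 and was found in 37 of all promoters (0.111%). Exact decamers are given only where members shared them, so the sharing was the reason for the choice and not a result. A match describes letters in these windows, and binding was not measured.

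The libraries differed widely within each pressure. Totals ran from 8925149 to 24025406 expected counts. Physiological replicate 3 and pathological replicate 3 had the lowest totals and the fewest genes with a count, 10649 and 10234, against 12833 to 17189 in the other libraries. Among the 8478 tested genes with a mean of at least 10 CPM, the share at 0 or 1 count was 11.2% in physiological replicate 3 and 14.6% in pathological replicate 3, against 0.755% to 2.94% in the others. Transcripts of the 20 genes of the hepatocyte list summed to 242 to 50828 CPM at physiological and 393 to 74488 CPM at pathological pressure, with 242, 393 and 874 CPM in physiological replicate 1 and pathological replicates 1 and 2, and 43804 to 74488 CPM in the other 3 libraries. The ranges were 557 to 2699 and 451 to 3528 CPM for the 14 matched stellate cell genes, and 691 to 1355 and 48.7 to 1594 CPM for the 15 macrophage genes. In the stellate cell list 2 of 11 tested genes had groups that did not overlap, both lower at pathological pressure. Of all 12742 tested genes, 389 (3.05%) had groups apart in this direction. Pdgfrb had 4.38, 18.1 and 61.1 CPM against 0.501, 0.900 and 0 CPM, and Acta2 had 2.93, 13.0 and 23.5 CPM against 1.18, 0.616 and 0 CPM (edgeR adjusted p = 1 for both, unadjusted p = 0.0242 and 0.0907). The 10 lymphocyte genes summed to at most 2.86 CPM in any library. Endothelial markers varied unequally. The vascular cadherin Cdh5 stood between 184 and 320 CPM in every library, whereas Kdr, a receptor of vascular endothelial growth factor, stood at 43.8, 502 and 355 CPM at physiological and at 4.18, 13.6 and 487 CPM at pathological pressure, and Cldn5 was at 0 in all 6. Of the tested genes, 10 of 10 endothelial and 10 of 12 sinusoidal endothelial genes had negative log2 fold changes, with medians of -0.69 and -0.59 and 0 past the threshold. In libraries with few hepatocyte transcripts, the endothelial list summed to 802 to 1272 CPM and the sinusoidal endothelial list to 3731 to 4440 CPM. In the other 3 libraries these sums were 2119 to 2855 and 6992 to 9390 CPM. The sinusoidal scavenger receptor Stab2 stood at 8.09, 208 and 173 CPM at physiological and 2.79, 15.3 and 204 CPM at pathological pressure. Pecam1 was not matched by symbol. In bulk RNA, fewer cells of a type and less RNA per cell cannot be told apart.

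No NF-kB gene passed the test between the pressures. In the quasi-likelihood test of edgeR, 0 of the 10 members had a Benjamini-Hochberg adjusted p under 0.05, beside 0 of 12742 genes (0%), and the adjusted p of each member was 1. Before adjustment, 0 members and 33 genes (0.259%) had a p under 0.05, and the smallest unadjusted p of a member was 0.284, for Nfkbiz. DESeq2 on the same genes called 0 members and 1 gene (0.00785%), and gave no p-value for Tnfaip3. The limma-voom fit called 0 members and 0 genes. The groups overlapped for all 10 members, whereas 588 genes (4.61%) had groups that did not overlap. The members' log2 fold changes, pathological against physiological, were negative for 6 and positive for 4 genes with a median of -0.19, and those of all genes were negative for 47.5% with a median of 0.05. Levels below are CPM, counts scaled to the TMM-adjusted library total. They are not divided by transcript length, so levels are compared between libraries and not between genes.

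**Figure D1:**
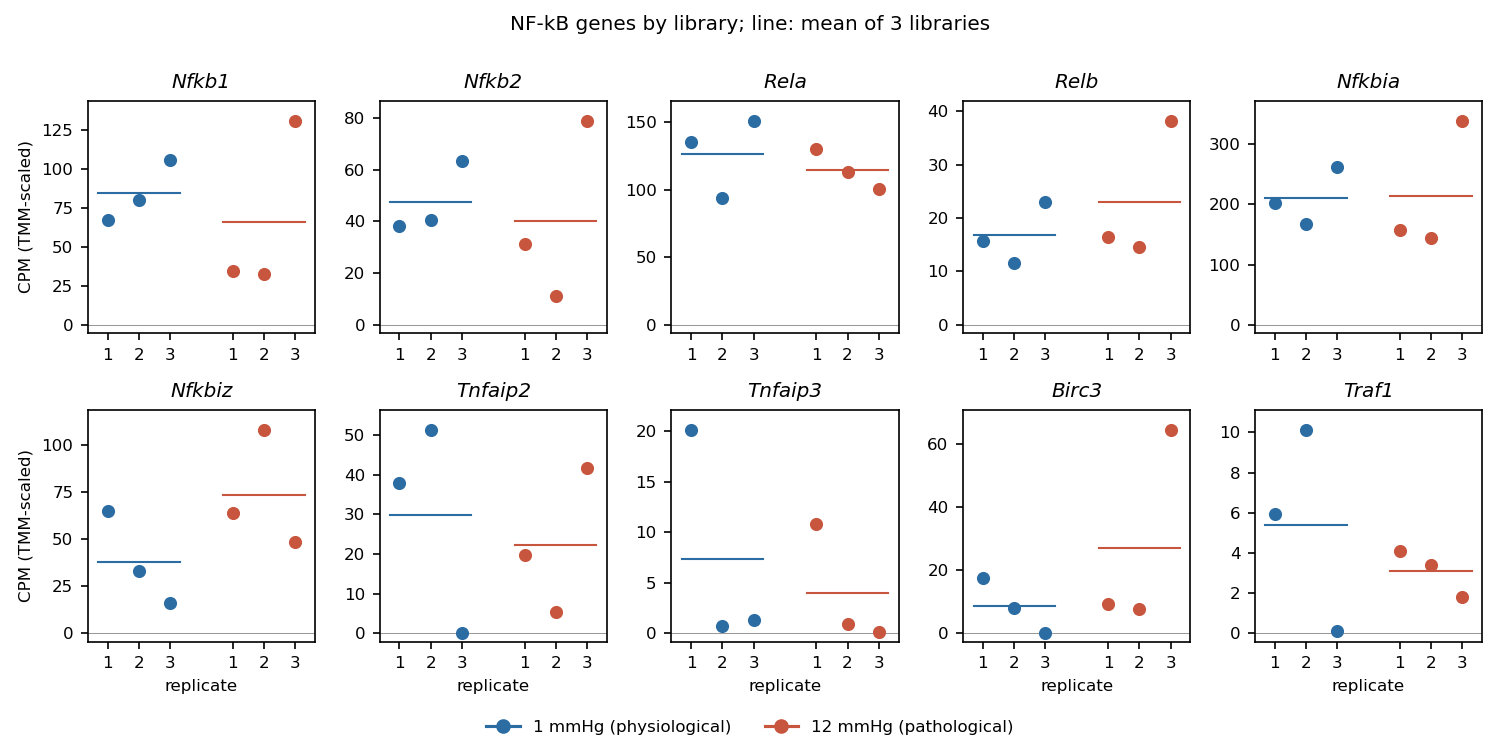
CPM of the 10 NF-kB genes (vertical axes, from 0) in each library (horizontal axis: replicates 1 to 3 at 1 mmHg in blue and at 12 mmHg in red), with a line at the mean of 3 libraries. The groups overlap in every panel, and pathological replicate 3 holds the highest value of Nfkb1, Nfkb2, Relb, Nfkbia and Birc3.

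Among the subunits, Rela was steady over the libraries and the others varied. Rela (ENSRNOG00000030888), the main transactivating subunit of the canonical pathway, had 135, 93.6 and 150 CPM in physiological replicates 1, 2 and 3, and 130, 113 and 101 CPM in the pathological replicates. Its highest library was 1.61 times its lowest, the narrowest range among the members, and the pathological values lay inside the physiological ones. The log2 fold change was -0.14 (SE 0.57, 95% CI -1.45 to 1.17). Nfkb1 (ENSRNOG00000023258), which encodes the precursor of the small canonical subunit, had 67.4, 80.1 and 106 CPM at physiological and 34.4, 32.4 and 130 CPM at pathological pressure. Pathological replicates 1 and 2 thus lay below every physiological library and pathological replicate 3 above them all. The means were 84.4 ± 19.5 and 65.7 ± 55.9 CPM (SD, n = 3 each), with a log2 fold change of -0.36 (SE 0.78, 95% CI -2.17 to 1.45).

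Nfkb2 (ENSRNOG00000019311), the precursor of the non-canonical subunit, had 38.2, 40.4 and 63.4 CPM at physiological and 31.1, 11.1 and 78.7 CPM at pathological pressure. The order of the 6 libraries was that of Nfkb1, from pathological replicate 2 at the bottom to pathological replicate 3 at the top, a 7.07-fold range. Its log2 fold change was -0.23 (SE 0.94, 95% CI -2.39 to 1.92). Relb (ENSRNOG00000033235), the partner of the processed Nfkb2 product, had 15.7, 11.6 and 22.9 CPM at physiological and 16.4, 14.5 and 38.1 CPM at pathological pressure. Here pathological replicates 1 and 2 lay among the physiological libraries and only pathological replicate 3 lay above them. The log2 fold change was 0.46 (SE 1.09, 95% CI -2.07 to 2.98).

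The IkB genes Nfkbia and Nfkbiz ordered the libraries differently. Nfkbia (ENSRNOG00000007390), the inhibitor that holds RelA dimers in the cytoplasm and is itself a rapid NF-kB target, had 203, 167 and 261 CPM at physiological and 157, 145 and 337 CPM at pathological pressure. As for Nfkb1 and Nfkb2, pathological replicates 1 and 2 were below and pathological replicate 3 above all physiological libraries. The means were 210 ± 47.5 and 213 ± 108 CPM (SD, n = 3 each), with a log2 fold change of 0.02 (SE 0.60, 95% CI -1.37 to 1.41). Nfkbiz (ENSRNOG00000031163), an atypical nuclear IkB that acts as a cofactor on secondary response genes, had 65.2, 33.3 and 16.1 CPM at physiological and 63.9, 108 and 48.8 CPM at pathological pressure. Pathological replicate 2, where Nfkb1, Nfkb2 and Nfkbia were lowest, was its highest library, and physiological replicate 1 alone overlapped the pathological range. Its means were 38.2 ± 24.9 and 73.6 ± 30.8 CPM (SD, n = 3 each), with a log2 fold change of 0.95 (SE 0.82, 95% CI -0.95 to 2.84).

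The arrangement shared by Nfkb1, Nfkb2 and Nfkbia was noticed after their values were seen. It held for 3 of 10 members and for 593 of 12742 tested genes (4.65%). Pathological replicate 3 was the highest library for 5 members, Nfkb1, Nfkb2, Relb, Nfkbia and Birc3, and for 21.2% of all tested genes. That library also had the highest sums of the hepatocyte, stellate cell, macrophage and sinusoidal endothelial lists. Its endothelial sum of 2473 CPM was below that of physiological replicate 2, 2855 CPM. The part of those cells in the values of these genes was not tested. With a term for hepatocyte content, log2 of the summed CPM of the hepatocyte list, all 10 members kept their sign, with log2 fold changes of -0.42 for Nfkb1, -0.26 for Nfkb2, 0.03 for Nfkbia and 0.85 for Nfkbiz. Without pathological replicate 3, 9 of 10 members were negative with a median of -0.40, beside a median of 0.07 for all genes, and without pathological replicate 2 the median was 0.12. Without pathological replicate 3 the log2 fold change was -1.32 for Nfkb1 (unadjusted p = 0.0895, edgeR adjusted p = 0.92), -1.15 for Nfkb2 and -0.47 for Nfkbia, and Nfkbiz remained positive at 1.17. In that fit 827 of 14232 genes (5.81%) had an unadjusted p under 0.05, against 0.259% in the main fit. For Nfkb1, Nfkb2 and Nfkbia, the 2 remaining pathological libraries lay below every physiological library, so their negative signs there add no support. The same 2 pathological libraries are those with few hepatocyte transcripts, so a fit restricted to such libraries gives no separate support. In the libraries with few hepatocyte transcripts, of which 1 was physiological, Nfkb1 was at 67.4 CPM at physiological and at 34.4 and 32.4 CPM at pathological pressure, and in the 3 rich libraries at 80.1 and 106 CPM against 130 CPM.

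**Figure D2:**
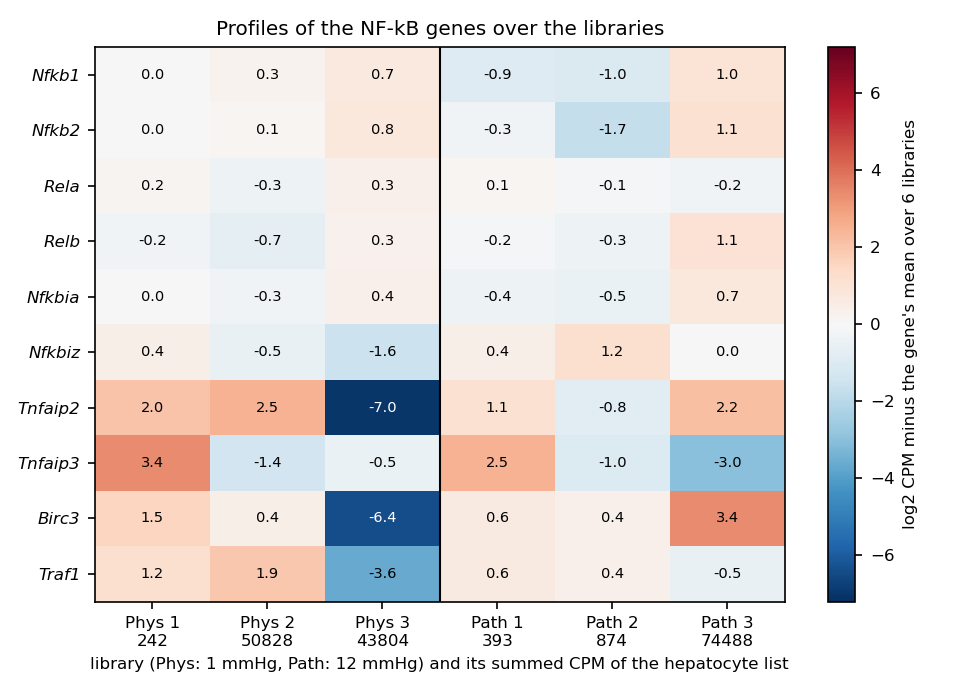
Log2 CPM of each NF-kB gene (rows) in each library (columns, with the summed CPM of the hepatocyte list below the name), less the gene's mean over 6 libraries; red is above and blue below that mean. Rela stays near 0 throughout, and the lowest cells are Tnfaip2 and Birc3 in physiological replicate 3, where both had 0 counts.

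The ubiquitin-editing and survival genes varied far more between libraries. Tnfaip3 (ENSRNOG00000049517), a ubiquitin-editing enzyme that shuts off signalling from the tumour necrosis factor receptor, had 20.1, 0.694 and 1.28 CPM at physiological and 10.8, 0.947 and 0.190 CPM at pathological pressure. Replicate 1 of each group was high and the other 4 libraries low, with 612 and 303 counts against 2 to 20 counts, a 106-fold range from lowest to highest. Its log2 fold change of -0.88 (SE 2.25, 95% CI -6.07 to 4.30) became 2.16 without physiological replicate 1 and -3.69 without pathological replicate 1. Hepatocyte transcripts summed to 242 and 393 CPM in those replicates and to 874 CPM in pathological replicate 2, where Tnfaip3 was low; their part in its values was not tested.

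Birc3 (ENSRNOG00000005731), an inhibitor-of-apoptosis ubiquitin ligase of the tumour necrosis factor receptor complex, had 17.7, 8.22 and 0 CPM at physiological and 9.30, 7.77 and 64.5 CPM at pathological pressure. Apart from pathological replicate 3, with 681 counts, the pathological values lay inside the physiological range. The log2 fold change was 1.65 (SE 1.90, 95% CI -2.73 to 6.03) with all libraries and -0.019 without pathological replicate 3. Birc3 was the 1 member with estimated counts that were not whole, in 4 libraries, and reads it shares with similar genes such as its paralog Birc2 could have been divided between them. Traf1 (ENSRNOG00000048914), an adaptor that recruits these ligases to the receptor, had 5.96, 10.1 and 0.143 CPM at physiological and 4.11, 3.41 and 1.80 CPM at pathological pressure. Physiological replicate 3 rested on 1 count. The log2 fold change was -0.80 (SE 2.00, 95% CI -5.42 to 3.82), and -0.0080 without physiological replicate 2. Tnfaip2 (ENSRNOG00000010165), a cytokine-inducible gene first described in endothelium, had 38.0, 51.3 and 0 CPM at physiological and 19.7, 5.31 and 41.7 CPM at pathological pressure. Its log2 fold change was -0.42 (SE 1.80, 95% CI -4.58 to 3.74), and its sign was not stable. It was -1.25 without pathological replicate 3 and -1.02 without physiological replicate 3, but 0.15 without physiological replicate 2, 0.036 without pathological replicate 2 and 0.61 with limma-voom.

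The zeros of Tnfaip2 and Birc3 both lay in physiological replicate 3, 1 of the libraries with the fewest genes detected. There, 0 counts allow up to 0.428 CPM (3 counts), which covers counting error only. In that library 23.6% of the tested genes were at 0, against 0.981% in physiological replicate 1. The part of this low detection in the values of Tnfaip2, Birc3 and Traf1 was not tested.

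**Figure D3:**
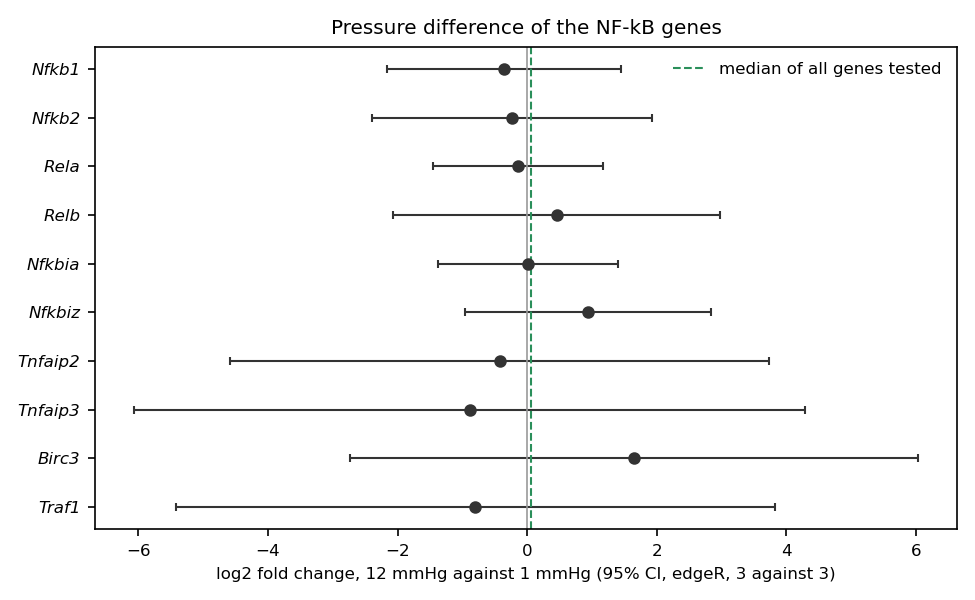
Log2 fold change of each NF-kB gene, 12 mmHg against 1 mmHg (horizontal axis), with the 95% CI of the edgeR fit over 3 against 3 libraries; the dashed line is the median of all genes tested, 0.05. Every interval spans 0, and the intervals of Tnfaip2, Tnfaip3, Birc3 and Traf1 are the widest.

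The intervals set what these libraries could resolve. Rela and Nfkbia had the narrowest, and the interval of Rela allows log2 changes from -1.45 to 1.17. Standard errors of the members ran from 0.57 for Rela to 2.25 for Tnfaip3, beside a median of 1.72 over all genes. Leaving out single libraries moved Nfkb1 between -1.32 and -0.038 and Nfkbiz between 0.56 and 1.65, and these were the members whose sign held under all 19 alternatives tried. Nfkbia, the member nearest to no difference, kept its sign in 11 of 19.

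**Figure D4:**
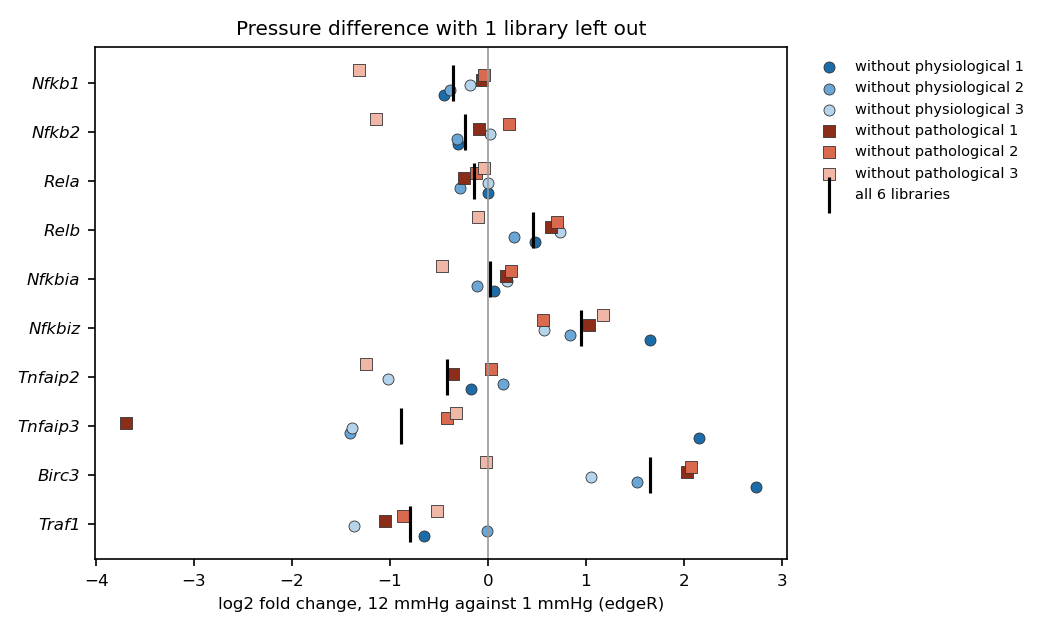
Log2 fold change of each NF-kB gene, 12 mmHg against 1 mmHg (horizontal axis), with all 6 libraries (black bar) and with each library left out in turn (circles: a 1 mmHg library, squares: a 12 mmHg library). Without pathological replicate 3, Nfkb1 lies at -1.32, and Tnfaip3 ranges from -3.69 to 2.16.

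Ratios within a library do not depend on its scaling. Relative to the counts of Rela, Nfkbia stood at 1.503, 1.79 and 1.74 in the physiological libraries and at 1.20, 1.28 and 3.35 in the pathological libraries. Nfkb1 relative to Rela stood at 0.4998, 0.856 and 0.702, and at 0.264, 0.288 and 1.29. Relb relative to Rela was close to level in 5 libraries, between 0.116 and 0.153, and 0.378 in pathological replicate 3. The groups overlapped in 8 of the 9 ratios, and did not overlap for 540 of all 12741 ratios of tested genes to Rela (4.24%). For Nfkbiz the ratio was 0.4837, 0.356 and 0.107 at physiological and 0.4907, 0.959 and 0.4845 at pathological pressure, so the groups did not overlap, with nearly equal values at their border.

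Likeness between profiles was measured as the mean absolute difference of centred log2 CPM over the 6 libraries, as a description only. The closest pair of members was Nfkbia and Relb, at 0.22, and Nfkb1 and Nfkb2 lay 0.29 apart. The member nearest to Rela was Nfkbia, at 0.36. Tnfaip2 and Birc3, which share the zero in physiological replicate 3, were nearest to each other at 1.00, and Tnfaip3 and Birc3 were the farthest pair at 3.21. The median over all 45 pairs was 1.86. Among 6668 other genes with a mean log2 CPM of at least 3, those nearest to the median profile of the members were Glul (0.15), Pcm1 (0.15) and Aph1a (0.16). Those nearest to Nfkbia were Asb8 (0.10), Phc2 (0.13) and Tinf2 (0.14), and those nearest to Nfkb2 were Csnk1g2 (0.07), RGD1311345 (0.11) and Oxa1l (0.13).

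Other genes of the pathway were taken by role, from lists chosen with earlier results of these data known. In the edgeR fit, 0 of their 84 tested genes passed the threshold in either direction, and 0 had an unadjusted p under 0.05. Among the ligands, 7 of 12 genes did not pass the filter. Tnf, a main activator of the canonical pathway, had 19, 29 and 0 counts at physiological and 11, 0 and 1 counts at pathological pressure. All 5 tested ligand genes had negative log2 fold changes, with a median of -0.78. Il1b (interleukin-1 beta) had 3.13, 13.1 and 36.8 CPM at physiological and 2.503, 0.995 and 6.44 CPM at pathological pressure (log2 fold change -2.41, SE 1.71, -1.30 without physiological replicate 3 and -0.81 in the libraries with few hepatocyte transcripts). Il18 had 8.65, 12.2 and 16.4 CPM at physiological and 6.69, 0 and 0 CPM at pathological pressure, and its groups did not overlap. Among the 13 tested receptors, 7 were positive, with a median of 0.16. Tlr2, which senses bacterial lipoproteins, had 4.18, 7.64 and 8.55 CPM against 1.82, 0 and 0 CPM. Macrophage genes summed to 48.7 CPM in pathological replicate 2, where Il18 and Tlr2 were at 0, and to 1594 CPM in pathological replicate 3, where both were also at 0 and 26.5% of the tested genes had no count. The part of either in these values was not tested.

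Of the 24 tested kinases and adaptors, 14 were positive, with a median of 0.26. Traf2, the adaptor that binds Traf1 and Birc3, had 45.5, 56.6 and 28.5 CPM at physiological and 59.6, 99.0 and 110 CPM at pathological pressure. Its groups did not overlap, with a log2 fold change of 1.04, an SE of 0.69 and an edgeR adjusted p of 1. Its sign held in all 19 alternatives, which adds no support, since groups that lie apart keep their order when a library is left out. Ripk2, the kinase of the NOD receptors, was the other gene of this list whose groups did not overlap, at 7.84 to 25.17 CPM against 25.21 to 42.6 CPM; it was outside the rule for named genes and chosen after its values were seen. Sharpin, a subunit of the linear ubiquitin ligase, had 23.3, 29.2 and 64.0 CPM against 23.3, 9.85 and 14.5 CPM (log2 fold change -1.29, SE 1.00, and -0.73 without physiological replicate 3).

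Among the other Rel and IkB genes, Rel itself had 16.1, 22.1 and 16.7 CPM at physiological and 28.7, 38.2 and 18.6 CPM at pathological pressure (log2 fold change 0.64, SE 0.98, and 0.38 without pathological replicate 2). Bcl3, a nuclear IkB that partners dimers of the Nfkb1 and Nfkb2 products, had 3.72, 13.9 and 12.1 CPM at physiological and 0.715, 0 and 0.0948 CPM at pathological pressure. In counts these were 113, 241 and 85 against 20, 0 and 1, and the groups did not overlap. The log2 fold change was -5.14 (95% CI -10.89 to 0.60, unadjusted p = 0.0729, edgeR adjusted p = 1), negative in all 19 alternatives and between -7.62 and -3.32. With groups apart, that sign was close to set beforehand. The unadjusted p of Bcl3 was 0.00403 with DESeq2 and 0.0131 with limma-voom, and it did not pass the threshold in any alternative. In all, 389 tested genes (3.05%) had groups apart with the pathological libraries lower, and 199 (1.56%) with them higher.

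Of the 15 other negative regulators tested, 10 were positive, with a median of 0.37. Tnip1, a ubiquitin-binding partner of the Tnfaip3 product, had 56.5, 71.6 and 151 CPM at physiological and 29.5, 17.5 and 55.1 CPM at pathological pressure. Its groups did not overlap, and its log2 fold change of -1.45 (SE 0.80, edgeR adjusted p = 1) ran from -1.97 to -0.92 over the 19 alternatives, with -0.92 without physiological replicate 3. Zfand5 had 318, 81.8 and 73.7 CPM against 433, 830 and 92.4 CPM (log2 fold change 1.52, SE 0.95). It was 0.74 without pathological replicate 2 and 2.64 without physiological replicate 1.

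Effector targets of NF-kB, the adhesion, chemokine and survival genes, were negative in 15 of 22 tested cases, with a median of -0.29. Beside 588 of all 12742 tested genes (4.61%), 1 of these 22 had groups that did not overlap. This was Ccl2, the monocyte chemokine, with 111, 214 and 177 CPM at physiological and 43.3, 77.0 and 79.2 CPM at pathological pressure (log2 fold change -1.33, SE 0.62, edgeR adjusted p = 1). Cxcl1, a neutrophil chemokine, had 177, 290 and 112 CPM against 88.6, 58.7 and 122 CPM (log2 fold change -1.11, SE 0.65, and -0.69 without physiological replicate 2). The tested adhesion genes Icam1, Vcam1 and Selp, chosen after their values were seen, had log2 fold changes of -0.02, -0.33 and -4.11 with groups that overlapped. Selp had 19.5, 3.12 and 0.285 CPM against 1.29, 0 and 0 CPM. The stellate cell genes Pdgfrb and Acta2 were, like Bcl3, Tnip1 and Ccl2, lower in every pathological than in every physiological library, and the part of stellate cells in these values was not tested. Tnfrsf12a, the receptor of the cytokine Tnfsf12, had 157, 229 and 175 CPM against 270, 813 and 76.4 CPM, and its log2 fold change of 1.05 (SE 0.85) became -0.097 without pathological replicate 2.

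**Figure D5:**
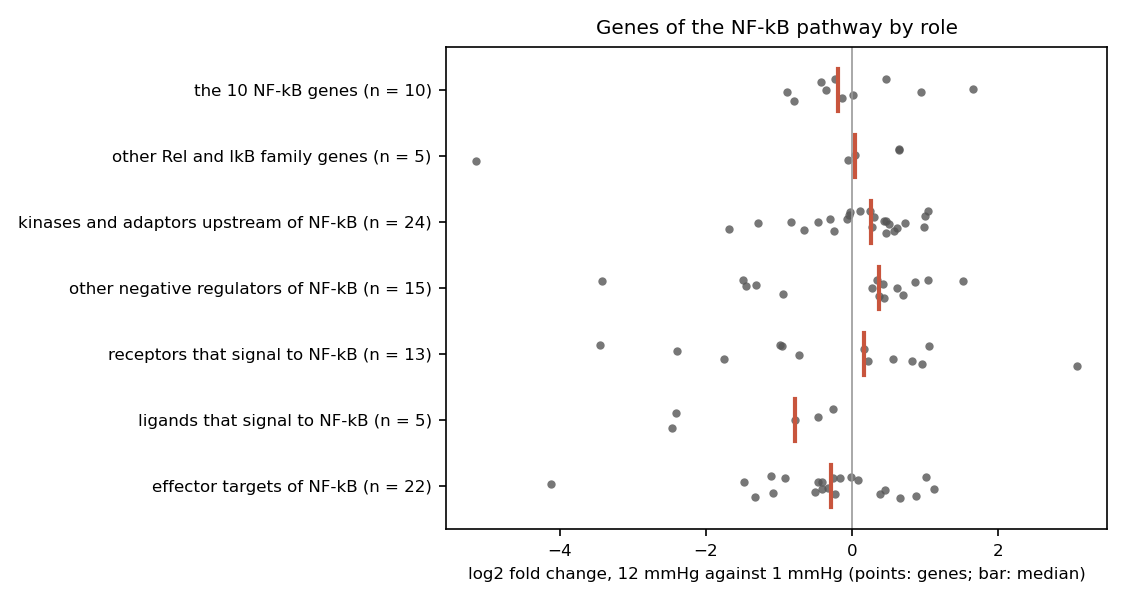
Log2 fold change of each tested gene of the NF-kB pathway, 12 mmHg against 1 mmHg (horizontal axis), grouped by role (points: genes, bars: medians, n: genes tested; vertical scatter within a row carries no value). The medians run from -0.78 for the ligands to 0.37 for the other negative regulators, and the point at -5.14 is Bcl3.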

How the data were processed

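RNA was sequenced single-end from polyA RNA of 6 libraries, 3 per pressure, grouped by the pressure in the labels; replicates were numbered in deposition order. The authors deposited expected counts, which are estimated reads per gene, per the file headers. The submitters' processing notes name STAR, RSEM and limma and no versions; genome build, annotation and strand use: not given in the sources used here. Between 4.33% and 10.4% of values per library were not whole, and all were rounded.

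The fit over all genes used edgeR 4.0.16 (quasi-likelihood, R 4.3.3) with TMM scaling, filterByExpr and no covariate. Two-sided p-values took the Benjamini-Hochberg adjustment over all tested genes, threshold 0.05. Standard errors were derived from that fit's test, as the absolute log2 fold change divided by the square root of the F statistic. The 95% intervals were built from these standard errors. Log2 CPM for likeness used a prior count of 0.5. Members and lists were chosen with earlier results of these data known. Named genes were the members, the 2 genes of smallest p per list, fixed markers and the 3 nearest profiles. Alternatives were other scalings and filters, DESeq2 1.42.0, limma-voom (limma 3.58.1), a block, a hepatocyte term and leaving out libraries. The fit was also run on simulated counts that varied less between libraries than these data. That run therefore does not show what the fit could detect here.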

Additional observations from a re-analysis of the deposited data

How the results depend on the processing

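Over 19 alternatives, 0 members passed the threshold in any, and Tnfaip3 had no p-value in either DESeq2 fit. The members' median, -0.19 in the main fit, had no stable sign. It was 0.094 with limma-voom and 0.30 with sample weights, -0.71 without the smallest library of each group and -0.74 in the hepatocyte-poor libraries alone, and it ran from -0.40 to 0.12 with 1 library left out, with 0 genes past the threshold in each. The members' median log2 CPM, taken per library, had an SD of 0.85 between libraries of a group. DESeq2 called 1 gene on the same genes and 44 on every gene with a count, an alternative chosen after seeing the data. The lists' named genes and Pdgfrb kept their sign in all alternatives, except Tnfrsf12a (-0.097 without pathological replicate 2, in a range of -0.097 to 1.55 with 1 library left out). The lists' genes were picked by small p in these same libraries, and the groups of Pdgfrb did not overlap. Both favour a kept sign, so it adds no support.

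Signs of members turned as follows; the cause was not tested. With limma-voom, Nfkbia was -0.094, Tnfaip2 0.61 and Traf1 0.32; with sample weights, Rela was 0.13, Nfkbia -0.32, Tnfaip2 0.41, Tnfaip3 1.44 and Traf1 0.44. With library totals alone, Nfkbia was -0.012. With 1 library left out, the ranges were -1.15 to 0.21 for Nfkb2, -0.28 to 0.00185 for Rela, -0.10 to 0.74 for Relb, -0.47 to 0.23 for Nfkbia, -1.25 to 0.15 for Tnfaip2, -3.69 to 2.16 for Tnfaip3 and -0.019 to 2.73 for Birc3. Without the smallest library of each group, Rela was 0.086, Nfkbia -0.30 and Birc3 -0.60, and in the hepatocyte-poor libraries alone Relb was -0.00488, Nfkbia -0.41 and Birc3 -1.04; both were chosen after seeing the data.

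No label pairs the libraries. Deviations of libraries with neighbouring sample numbers correlated at 0.61, -0.22 and 0.37 across genes, 4 of 6 libraries correlated best with their own neighbour, and the numbers were not taken to pair them, and a block of those numbers left 0 genes past the threshold, with Nfkbia at -0.071 and Traf1 at 0.17. Replicate 3 of each group had the lowest totals, 8925149 and 11426299 counts, and the part of these totals in the low members was not tested.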
